A study of Mus musculus with 6 samples.

Results

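The genes described here are 10 components of the Notch pathway, taken by symbol from a table of 20483 genes. They comprise the receptors *Notch1*, *Notch2* and *Notch3*, the ligands *Jag1*, *Jag2* and *Dll1*, the target genes *Hes1*, *Hey1* and *Nrarp*, and the transcription factor gene *Hes6*. All 10 were present in the table. Their levels are given over the basal, secretory and multiciliated cells of mouse airway epithelial cultures and compared between *Dnaaf5* genotypes.

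Tracheal epithelial cells were taken from 6 C57BL/6 mice aged 12 weeks, differentiated at the air-liquid interface and profiled by droplet-based 3′ single-cell RNA sequencing. Wild-type mice (*WT/WT*, 3 animals) were compared with mice carrying 2 copies of a *Dnaaf5* missense allele (*MIS/MIS*, 3 animals, labelled DNAAF5 mutant). DNAAF5 is a cytoplasmic factor that assembles the dynein motors of motile cilia. The allele is germline, so every cell of a *MIS/MIS* culture carried it, and each mouse gave 1 library. The *WT/WT* mice are named WT1, WT2 and WT3, and the *MIS/MIS* mice MT1301, MT1306 and MT1383.

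The Notch pathway passes a signal between touching cells. A ligand of the Jagged or Delta-like family on one cell binds a Notch receptor on its neighbor, γ-secretase then cuts the receptor, and the freed intracellular domain joins the DNA-binding protein Rbpj and a Mastermind coactivator to switch on genes of the Hes and Hey families. In the airway epithelium, Notch activity in progenitors is known to favor the secretory fate, and its absence the multiciliated fate. Basal cells are the stem cells of this epithelium, secretory cells make mucus and host-defense proteins, and multiciliated cells carry the motile cilia.

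The genes lie on 6 chromosomes of the mouse genome (GRCm38, GENCODE annotation) and all are protein coding. On chromosome 2 are *Notch1* (chr2:26457903-26516663, minus strand), *Jag1* (chr2:137081456-137116644, minus strand) and *Nrarp* (chr2:25180758-25183339, plus strand). *Notch2* (chr3:98013527-98150361, plus strand) and *Hey1* (chr3:8663359-8667256, minus strand) share chromosome 3, and *Notch3* (chr17:32120820-32166852, minus strand) and *Dll1* (chr17:15367354-15376872, minus strand) share chromosome 17. *Jag2* is at chr12:112907819-112929776 on the minus strand, *Hes1* at chr16:30064384-30067796 on the plus strand and *Hes6* at chr1:91411483-91414038 on the minus strand.

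*Notch3* and *Nrarp* were the only 2 of the 10 genes that each stood among the 3 genes closest to the other in pattern over cell types, described further on, and the 250 bases before the start site of each are shown for that reason. They are RefSeq sequences of GRCm38.p6, read 5′ to 3′ on the strand of the gene, from chr17:32166891-32167140 (minus) for *Notch3* and chr2:25180508-25180757 (plus) for *Nrarp*. Capitals mark CACGNG, searched on both strands, a form of the site that Hes and Hey proteins bind.
Notch3: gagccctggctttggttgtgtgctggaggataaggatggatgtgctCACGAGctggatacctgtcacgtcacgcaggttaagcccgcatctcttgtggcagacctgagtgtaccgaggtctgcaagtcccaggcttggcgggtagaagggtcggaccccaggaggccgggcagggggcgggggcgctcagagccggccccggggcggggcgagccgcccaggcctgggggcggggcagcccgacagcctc
Nrarp: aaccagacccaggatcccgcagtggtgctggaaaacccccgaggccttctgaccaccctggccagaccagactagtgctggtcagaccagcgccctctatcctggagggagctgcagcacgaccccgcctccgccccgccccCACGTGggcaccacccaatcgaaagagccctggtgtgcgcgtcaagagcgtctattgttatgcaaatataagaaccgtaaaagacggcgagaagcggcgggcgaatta

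Each of the 2 windows held 1 match, starting 204 bases before the start site in *Notch3* and 108 bases before it in *Nrarp*. The table of sequences gave 10 windows for 8 of the 10 genes, with no entry used for *Hes1* and *Hey1*. CACGNG was in 7 of these 10 windows and in 23.5% of all 32851 windows of this length. TGGGAA, the core of the Rbpj site, was in 0 of the 10 windows and in 21.6% of all windows. The matches describe letters only.

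The table held 23871 cells, of which 11126 were annotated by the study as basal (8 clusters), 7731 as secretory (2 clusters) and 4823 as multiciliated (4 clusters), with 163 neuroendocrine cells and 28 ionocytes. A mouse contributed between 2673 and 6710 cells of all types, and the median cell of a class had 26312 unique molecular identifiers (UMIs) in basal, 32690 in secretory and 29360 in multiciliated cells. Cell barcodes shared by more than 1 library numbered 67. The WT1 library stood apart in that 57.1% of its basal cells were Basal4, a cluster high in *Krt13* (8499 CPM, the UMIs of a gene per 1000000 UMIs of the cells summed), against 0.055% to 11.02% in the other 5 mice. Where leaving out WT1 or Basal4 changed the overlap or the direction of a level ratio to basal cells, or moved a genotype difference discussed by name by over 1.5 times, the value without them is given beside it.

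Cluster labels were checked against marker genes. *Krt5*, a basal keratin, was between 43.0 and 942 CPM in the 8 basal clusters, and Basal7 and Basal8, at 68.6 and 43.0 CPM, were below Secretory2 at 100.3 CPM. Other basal markers differed in this order. *Krt14* was at 793 and 44.8 CPM in Basal7 and Basal8 against 10.1 CPM in Secretory2, and *Krt15* at 459 and 5621 CPM against 3358 CPM. *Trp63* was at 15.1 and 5.27 CPM against 11.8 CPM, *Dlk2* at 6.08 and 1.11 CPM against 2.72 CPM, and *Ngfr* at 2.34 and 1.32 CPM against 4.34 CPM. *Foxj1*, the master regulator of motile cilia, was at 716, 344 and 195 CPM in Multiciliated2, 3 and 4 but at 72.5 CPM in Multiciliated1. *Rsph1*, *Ccdc39*, *Cfap126* and *Dnah5* were also lowest in Multiciliated1 among these clusters, *Dnah5* only narrowly (128 CPM against 142 CPM in Multiciliated2). *Tppp3* went the other way, at 706 CPM in Multiciliated1 and 495 CPM in Multiciliated2. The secretory gene *Cyp2f2* was at 9318 CPM in Multiciliated1, but it did not separate the classes, at 9436 CPM in Secretory1 and 9754 CPM in Basal8. *Scgb3a2*, another secretory gene, was at 1637 CPM in Multiciliated1 and 941 CPM in Multiciliated2, against 13504 CPM in Secretory1. *Bpifa1* was at 945 and 2503 CPM in these 2 multiciliated clusters, against 13693 CPM in Secretory1. Basal clusters held these genes too, with *Scgb3a2* at 2999 CPM in Basal2, above Secretory2 at 2721 CPM, and *Bpifa1* at 4089 CPM in Basal6. *Mcidas*, an early multiciliated marker, was at 140 CPM in Multiciliated2 and at 2.01 CPM or less in every other cell type. The early markers *Ccno*, *Deup1*, *Myb* and *Cdc20b* also peaked in Multiciliated2. *Gmnc*, on the same list, did not, at 6.18 CPM there against 31.0 CPM in Multiciliated1 and 13.1 and 13.4 CPM in Secretory1 and Secretory2. *Chga* was at 2241 CPM in neuroendocrine cells and *Foxi1* at 669 CPM in ionocytes. Of the markers of other cells, *Ptprc* did not exceed 0.427 CPM in any cell type, while *Col1a1* was at 26.8 CPM in Basal1 and at 0.076 CPM or less elsewhere.

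Levels between cell classes were compared within mice, as the log2 ratio of CPM with 0.5 CPM added, and are given as mean ± SD over the 6 mice. The clusters were defined on these same cells, so the levels are a description with no test. Beside each count stands the share of all genes (mean of at least 1 CPM) for which the 6 mice of one class lay wholly above or below those of the other.

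Of the 6 ligands and receptors, *Notch1*, *Jag2* and *Dll1* were highest on average in basal cells, *Notch2* and *Notch3* in secretory cells and *Jag1* in multiciliated cells. From basal to secretory cells, 6 of the 10 genes were lower in all 6 mice and 2 were higher, as were 36.0% and 22.2% of all genes. The 6 mice did not overlap between the classes for 4 genes below (*Notch1*, *Jag1*, *Jag2* and *Dll1*) and 1 above (*Hey1*), against 20.7% of 12085 genes below and 11.5% above. From basal to multiciliated cells, 5 genes were below without overlap (*Notch1*, *Notch3*, *Jag2*, *Dll1* and *Nrarp*) and 1 above (*Hes6*), against 16.6% and 38.0% of 13001 genes. From secretory to multiciliated cells, 4 were below (*Notch2*, *Notch3*, *Hey1* and *Nrarp*) and 3 above (*Jag1*, *Jag2* and *Hes6*), against 14.2% and 45.5% of 12760 genes. The median log2 ratio of the 10 genes was −0.46, −0.82 and −0.31 in these 3 comparisons, where that of all genes was −0.09, 0.19 and 0.28.

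**Figure D1:**
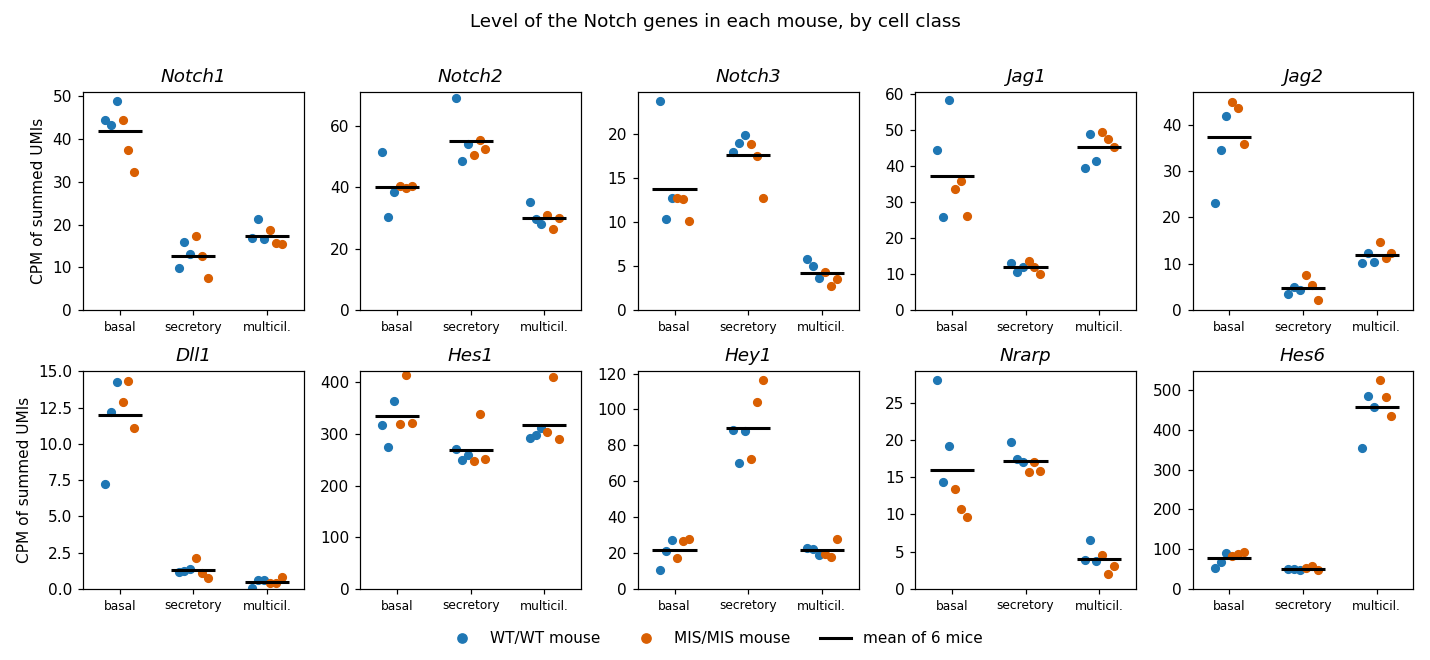
Level of each gene in CPM (y axis, from 0) in basal, secretory and multiciliated cells (x axis), 1 point per mouse, blue for WT/WT and orange for MIS/MIS, with a bar at the mean of the 6 mice. Hey1 stands highest in secretory cells (70.3 to 116 CPM), Hes6 in multiciliated cells (354 to 525 CPM), and Jag2 and Dll1 in basal cells.

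Among the receptors, *Notch1*, which is known for its role in basal cell differentiation, was highest in basal cells. Its level there was 44.4, 43.2 and 49.0 CPM in WT1, WT2 and WT3 and 44.4, 37.3 and 32.3 CPM in MT1301, MT1306 and MT1383. Secretory cells had 9.89, 15.98 and 13.1 CPM in the *WT/WT* and 17.2, 12.6 and 7.49 CPM in the *MIS/MIS* mice. In every mouse basal cells were above both other classes, by 1.71 ± 0.33 on the log2 scale over secretory and 1.23 ± 0.19 over multiciliated cells (n = 6). Multiciliated cells, at 15.3 to 21.2 CPM, were above secretory cells in all 6 mice, but the 2 ranges overlapped.

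*Notch2*, a receptor of the same architecture, was highest in secretory cells. Secretory cells had 68.9, 48.6 and 54.0 CPM in the *WT/WT* mice and 50.4, 55.5 and 52.5 CPM in the *MIS/MIS* mice. Basal cells had 30.4 to 51.5 CPM and multiciliated cells 26.5 to 35.0 CPM. Multiciliated cells were below secretory cells by 0.86 ± 0.15 on the log2 scale, with no overlap between mice, while basal cells overlapped both. Without WT1, basal cells no longer overlapped secretory cells, at a log2 ratio of 0.47 against 0.46 with it. The spread between classes was thus smaller than for the other receptors.

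*Notch3*, known in the airway for priming basal cells toward luminal fates, was at 18.03, 19.0 and 19.96 CPM in secretory cells of the *WT/WT* mice and at 18.9, 17.5 and 12.7 CPM in those of the *MIS/MIS* mice. Basal cells had 23.8, 10.3 and 12.8 CPM in the *WT/WT* mice and 12.8, 12.6 and 10.2 CPM in the *MIS/MIS* mice. WT1 alone held the high basal value, and in WT1 alone basal cells were above secretory cells. Multiciliated cells had 2.68 to 5.84 CPM, below both other classes in every mouse, with a log2 ratio of −1.59 ± 0.39 to basal and −1.99 ± 0.36 to secretory cells (n = 6). Without Multiciliated1, the latter ratio was −2.86.

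All 3 ligands were lower in secretory than in basal cells of every mouse, without overlap. *Jag1*, a Jagged ligand, was at 44.6, 25.8 and 58.3 CPM in basal cells of the *WT/WT* mice and at 33.7, 35.8 and 26.1 CPM in those of the *MIS/MIS* mice. It was also high in multiciliated cells, at 39.5, 49.1 and 41.3 CPM in *WT/WT* and 49.5, 47.7 and 45.3 CPM in *MIS/MIS* mice, and overlapped there with basal cells. In secretory cells it was between 10.1 and 13.6 CPM, a log2 ratio of −1.56 ± 0.38 to basal cells. *Jag1* was therefore the single ligand of the 3 that basal and multiciliated cells held at overlapping levels.

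*Jag2*, the other Jagged ligand, was at 23.1, 34.5 and 41.9 CPM in basal cells of the *WT/WT* mice and at 45.0, 43.5 and 35.9 CPM in those of the *MIS/MIS* mice. Multiciliated cells had 10.1 to 14.6 CPM and secretory cells 2.11 to 7.57 CPM. The 3 classes did not overlap, although secretory and multiciliated cells did after thinning to equal depth (log2 ratio 0.87 against 1.33), and the log2 ratio of secretory to basal cells was −2.93 ± 0.48 (n = 6). *Dll1*, a Delta-like ligand, was at 7.24, 12.2 and 14.3 CPM in basal cells of the *WT/WT* mice and at 12.9, 14.3 and 11.1 CPM in those of the *MIS/MIS* mice. It was at 0.73 to 2.14 CPM in secretory and 0.074 to 0.81 CPM in multiciliated cells, whose 85 UMIs over all mice leave the latter imprecise. Basal *Dll1* was above both other classes in all 6 mice.

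Of the targets, *Hes1*, a repressor of neuroendocrine and neurogenic genes, varied least between classes. It was at 318, 275 and 363 CPM in basal cells of the *WT/WT* mice and at 320, 415 and 321 CPM in those of the *MIS/MIS* mice, and the ranges were 248 to 339 CPM in secretory and 290 to 410 CPM in multiciliated cells. Secretory cells were lower than basal cells of the same mouse in 6 of 6 mice, by 0.31 ± 0.12 on the log2 scale. MT1306 was the highest mouse in all 3 classes.

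*Hey1*, a repressor of the same family, marked the secretory class. Secretory cells had 88.8, 70.3 and 87.7 CPM in the *WT/WT* mice and 72.1, 104 and 116 CPM in the *MIS/MIS* mice. Basal cells had 10.3 to 27.5 CPM and multiciliated cells 17.99 to 28.0 CPM. Secretory cells were above basal cells by 2.08 ± 0.50 and above multiciliated cells by 2.03 ± 0.30 on the log2 scale (n = 6), with all 6 mice in the same direction and no overlap. The ratio of multiciliated to basal cells, 0.05 ± 0.61, was −0.16 without WT1 and −0.14 without Basal4.

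*Nrarp*, an ankyrin-repeat protein induced by Notch that limits the signal by turnover of the intracellular domain, had similar levels in basal and secretory cells and was low in multiciliated cells. Basal cells had 28.0, 14.4 and 19.3 CPM in the *WT/WT* mice and 13.4, 10.8 and 9.66 CPM in the *MIS/MIS* mice. Secretory cells had 19.8, 17.5 and 17.0 CPM in the *WT/WT* mice and 15.6, 17.0 and 15.8 CPM in the *MIS/MIS* mice. Multiciliated cells, at 1.95 to 6.59 CPM, were below both in every mouse, by 1.87 ± 0.61 and 2.06 ± 0.51 on the log2 scale (n = 6).

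*Hes6*, a Hes relative that does not itself act as a Notch-driven repressor and can oppose Hes1, had the highest multiciliated ratio of the 10 genes. Multiciliated cells had 354, 485 and 458 CPM in the *WT/WT* mice and 525, 481 and 435 CPM in the *MIS/MIS* mice. Basal cells had 51.8 to 91.4 CPM and secretory cells 46.1 to 57.3 CPM. The log2 ratio of multiciliated cells was 2.55 ± 0.24 to basal and 3.16 ± 0.19 to secretory cells. Secretory cells, at −0.60 ± 0.33 to basal cells, overlapped them with all mice and cells but lay wholly below them without WT1 (−0.71) or without Basal4 (−0.66).

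Within the classes, the clusters differed as well. The values that follow are CPM of the pooled UMIs of a cluster, with the range over those mice that had at least 20 cells of it. *Jag2* and *Dll1* both peaked in Basal3, the cluster with the highest level of the basal marker *Dlk2*. *Jag2* was at 85.0 CPM there (68.3 to 118 CPM, 6 mice), above Basal6 at 53.6 CPM without overlap, and *Dll1* was at 24.5 CPM (18.7 to 35.6 CPM), above Basal2 at 15.02 CPM without overlap.

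*Jag1* did not share that peak. It was at 81.9 CPM in Basal1 (37.1 to 131 CPM) and at 28.4 CPM in Basal3, and at 57.0 and 55.7 CPM in Multiciliated2 and Multiciliated3 against 18.04 CPM in Multiciliated1. Its highest value, 147 CPM, was in the 28 ionocytes, from 102 UMIs and with no mouse at 20 cells. Basal1 was also the cluster with *Col1a1*, and whether cells other than basal cells contributed to its *Jag1* was not tested.

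*Notch1* was at 72.0 CPM in Basal6 (47.1 to 92.4 CPM) and at 61.2 CPM in Basal3, against 20.3 CPM in Secretory2 and 9.67 CPM in Secretory1. Neuroendocrine cells had 1 *Notch1* UMI among 163 cells. These cells also had *Hes1* at 50.7 CPM, the lowest of all 16 cell types, together with *Dll1* at 18.6 CPM, *Jag2* at 30.6 CPM and *Hes6* at 309 CPM. Most neuroendocrine cells (108) came from MT1383, the only mouse with at least 20.

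*Notch3* and *Nrarp* were both highest in the pooled UMIs of Basal4, at 27.2 and 34.3 CPM, most of whose cells came from WT1, though the highest single mouse was in Basal8 for both, and both were low in the multiciliated clusters. *Notch3* was at 9.28, 4.84 and 0.78 CPM in Multiciliated1, 2 and 3, and *Nrarp* at 5.54, 6.52 and 1.49 CPM. Some basal clusters were no higher than Multiciliated1, with *Notch3* at 8.78 CPM in Basal2 and 8.33 CPM in Basal3, and *Nrarp* at 4.80 CPM in Basal3. In Multiciliated4, a cluster of 146 cells with a median of 10197 UMIs, *Notch3*, *Nrarp* and *Dll1* had 0 UMIs, which allows up to 1.84 CPM and a share of up to 2.05% of cells, for counting error only. *Hey1* was at 48.9 CPM in Multiciliated1 and at 16.5 and 12.8 CPM in Multiciliated2 and 3, but was at its lowest in Basal4 at 3.19 CPM, where *Nrarp* was highest.

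*Hes6* had the reverse order, with 208 CPM in Multiciliated1 (149 to 236 CPM), 491 CPM in Multiciliated2 (380 to 530 CPM) and 570 CPM in Multiciliated3 (457 to 694 CPM). Multiciliated1 and Multiciliated2 did not overlap. Among basal clusters it was highest in Basal1, at 131 CPM.

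Most neighbors in these orders could not be told apart by the spread between mice. Among the 14 cell types with at least 4 such mice, the 13 neighboring pairs of each gene overlapped except for 1 pair in *Notch1* (Secretory1 over Multiciliated4), *Notch2* (Multiciliated3 over Multiciliated4), *Jag1* (Basal4 over Basal3), *Jag2* (Basal3 over Basal6), *Hey1* (Secretory2 over Multiciliated1), *Nrarp* (Multiciliated3 over Multiciliated4) and *Hes6* (Multiciliated2 over Multiciliated1). *Notch3* and *Dll1* had 2 such pairs each, and *Hes1* had 0. For *Notch3* and *Nrarp*, the pair of Multiciliated3 over Multiciliated4 rests on 0 UMIs in the latter. Those 0 UMIs allow up to 1.84 CPM, above the pooled Multiciliated3 levels of 0.78 and 1.49 CPM, so counting error leaves this order undecided.

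**Figure D2:**
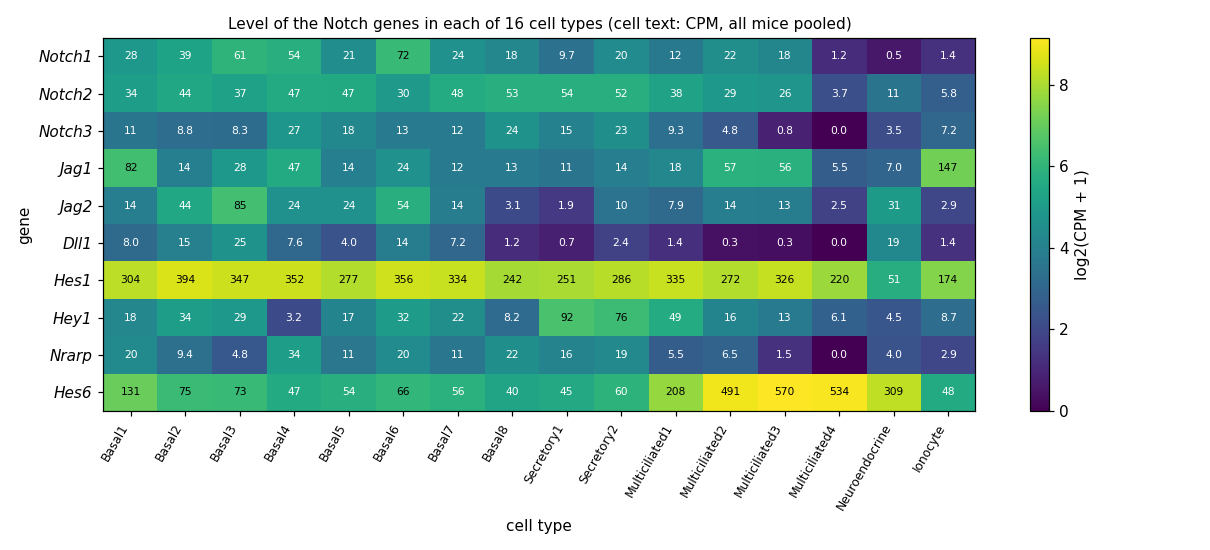
Level of each gene (rows) in each of the 16 cell types (columns), with the pooled CPM printed in each field and colored by log2(CPM + 1). Jag2 and Dll1 peak in Basal3 (85.0 and 24.5 CPM), Hey1 in Secretory1 (91.9 CPM) and Hes6 in Multiciliated3 (570 CPM).

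**Figure D3:**
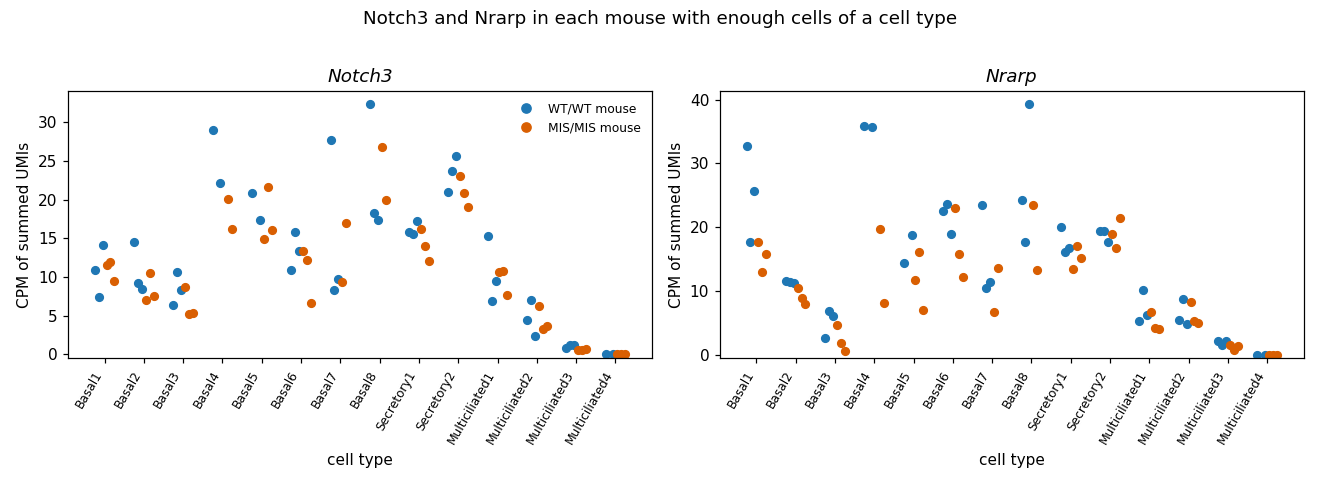
Notch3 (left) and Nrarp (right) in CPM (y axis) by cluster (x axis), 1 point per mouse with at least 20 cells of the cluster, blue for WT/WT and orange for MIS/MIS. Both genes are at 0 in Multiciliated4, the single highest mouse of each gene lies in Basal8, and the Nrarp points of MIS/MIS mice lie below those of WT/WT mice in Basal4 (19.8 and 8.12 against 35.9 and 35.8 CPM).

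The genes with the pattern most like each of the 10 were found by Pearson's r of log2(CPM + 1) over the 16 cell types, among 11737 genes. The cell types share libraries and differ in depth, so r is given as a description. *Notch3* and *Nrarp* were at r = 0.92 to each other, the third closest gene to *Notch3* and the closest to *Nrarp*. *Notch1* was closest to *P2ry1* and *Itgb4* (r = 0.93 each), *Notch2* to *Dnmbp* (0.96), *Jag1* to *Myo5a* (0.85), *Jag2* to *Bcam* (0.90), *Dll1* to *Cebpz* (0.90), *Hes1* to *Rest* (0.91), *Hey1* to *Lcp1* (0.90) and *Hes6* to *Slc25a14* (0.98) and *Spata7* (0.97).

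The share of cells with a UMI depends on depth, so each cell was thinned to 5000 UMIs. No cell had fewer. *Dll1* was then detected in 6.43% ± 1.35 of basal, 0.72% ± 0.49 of secretory and 0.13% ± 0.15 of multiciliated cells (mean ± SD, n = 6 mice), and in 22.0%, 4.17% and 1.30% as deposited. For comparison, *Foxj1*, which basal cells should lack, gave a UMI in 1.45% of thinned basal cells and in 67.1% of multiciliated cells. *Chga*, which all 3 classes should lack, gave one in 0.027% of basal, 0.039% of secretory and 0.104% of multiciliated cells. *Foxj1* gave a UMI in 0.97% of thinned secretory cells, and the basal marker *Trp63* in 1.02% of thinned multiciliated cells. The secretory share of *Dll1* lay between the *Foxj1* and *Chga* shares of that class, and its multiciliated share was near the *Chga* share. *Foxj1* was at 363 CPM in multiciliated and *Chga* at 2241 CPM in neuroendocrine cells, against 12.0 CPM for *Dll1* in basal cells. At such unlike levels these shares set no background for *Dll1*, and whether its multiciliated UMIs are background was not tested. *Jag2* was in 17.2% ± 3.43 of basal, 2.44% ± 1.09 of secretory and 4.89% ± 1.31 of multiciliated cells, and *Notch3* in 5.86% ± 2.13, 8.30% ± 0.87 and 1.66% ± 1.04. The multiciliated share of *Notch3* was near the *Trp63* share of that class. Among the multiciliated clusters both genes were highest in Multiciliated1, at 9.28 and 5.98 CPM. Whether either share is background was not tested.

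The shares were lower after thinning. *Hey1* was in 74.0% ± 6.87 of secretory cells as deposited and 31.0% ± 5.17 after thinning, against 7.73% ± 2.49 of thinned basal cells. *Hes6* was in 70.4% ± 3.15 of thinned multiciliated, 27.8% ± 3.98 of basal and 20.6% ± 2.21 of secretory cells. As deposited, 4 genes had a higher share in secretory than in basal cells of every mouse, and after thinning 2 had. How often this held over all genes was not computed, so these counts have no background and are a description only.

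Counted by role at this depth, a UMI of any of the 3 receptors was found in 35.2% ± 3.44 of basal, 34.3% ± 3.14 of secretory and 21.2% ± 1.37 of multiciliated cells. A UMI of any of the 3 ligands was found in 32.2% ± 3.73 of basal, 8.90% ± 2.37 of secretory and 23.5% ± 5.41 of multiciliated cells. Basal and secretory cells thus overlapped in their receptors and did not in their ligands. Cells with both made up 11.9% ± 1.71, 3.48% ± 1.02 and 5.18% ± 1.51. Basal3 had the highest ligand share, 52.1% (41.6% to 58.8%), and Secretory1 the lowest of the clusters outside Multiciliated4, 6.52% (4.74% to 8.21%).

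**Figure D4:**
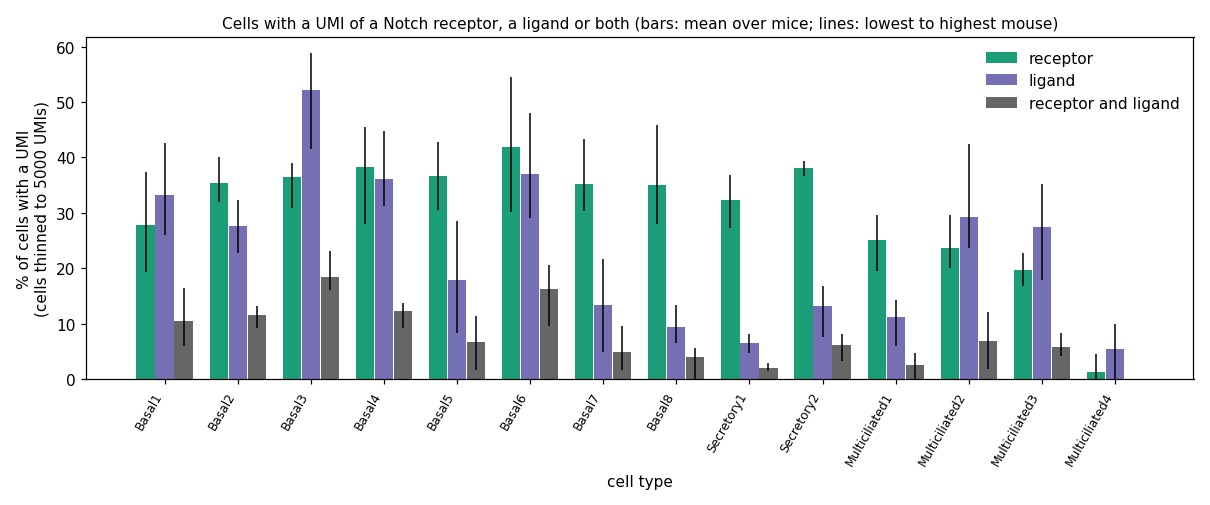
Percent of cells with at least 1 UMI of a receptor (Notch1, Notch2 or Notch3), of a ligand (Jag1, Jag2 or Dll1) or of both (y axis) by cluster (x axis), after thinning each cell to 5000 UMIs. Bars are means over the mice with at least 20 cells and lines run from the lowest to the highest mouse, and the ligand bar is tallest in Basal3 (52.1%) while the receptor bar of Secretory1 remains at 32.3%.

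A wider list of 55 other Notch pathway genes was examined in the same way, of which 53 were in the table. At 10 CPM or more in a class and higher there than in both other classes in all 6 mice were 6 genes in basal, 8 in secretory and 13 in multiciliated cells, of 38 that reached 10 CPM in a class. Over all 9515 genes at that level, these shares were 15.6% in basal, 8.95% in secretory and 42.9% in multiciliated cells. The basal genes were led by *Dlk2*, a non-canonical ligand, at 22.4 ± 5.85 CPM (SD, n = 6) against 1.34 ± 0.57 CPM in secretory cells, then by *Furin*, the protease that matures Notch receptors, at 36.5 ± 7.77 CPM against 17.6 ± 3.56 CPM, and by the γ-secretase subunit *Aph1a* with a log2 ratio of 0.24.

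The secretory genes had small ratios, with 0.54 for *Dtx4*, 0.52 for *Dtx3l* and 0.30 for *Tle2* on the log2 scale. The first 2 belong to the Deltex group of ubiquitin ligases and *Tle2* is a Groucho-type corepressor. The multiciliated genes were led by *Neurl1a*, a ubiquitin ligase acting on ligands, at 37.4 ± 3.30 CPM against 0.46 ± 0.15 CPM in basal cells. *Dtx1* followed with 10.0 ± 4.15 against 0.084 ± 0.041 CPM, and *Lfng*, the Fringe glycosyltransferase that sets which ligand a receptor answers to, with 25.1 ± 3.11 against 3.75 ± 1.15 CPM. The ligand genes *Dner*, *Dll3* and *Dll4*, chosen after their values were seen, were highest in neuroendocrine cells, at 311, 46.6 and 17.6 CPM.

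Whether the *Dnaaf5* genotype moved these genes was tested on UMI sums per mouse with limma voom, with Benjamini-Hochberg adjustment over all genes tested in a comparison. Log2 differences are *MIS/MIS* minus *WT/WT* with their standard error (SE), 3 mice per genotype. None of the 10 genes passed an adjusted p of 0.05 in basal, secretory or multiciliated cells, nor did any of the 46, 44 and 48 other pathway genes tested there. At an unadjusted p under 0.05 were 2, 0 and 0 of the 10 genes. Over all genes, 0% of 14615 passed in basal cells (334 at an unadjusted p under 0.05), 0.00735% of 13610 in secretory cells, which is 1 gene, and 0.00704% of 14206 in multiciliated cells, also 1 gene. The median log2 difference of the 10 genes was 0.03, 0.03 and 0.06 in the 3 classes, and that of all genes −0.01, 0.00 and 0.01.

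*Nrarp* had the lowest difference of the 10 in basal and in multiciliated cells. Its basal level was 28.0, 14.4 and 19.3 CPM in the *WT/WT* mice and 13.4, 10.8 and 9.66 CPM in the *MIS/MIS* mice, so the genotypes did not overlap. The log2 difference was −0.89 (SE 0.29, unadjusted p = 0.0206 and adjusted p = 0.999934 by limma voom). It was −0.59 without WT1 and also −0.59 without Basal4, the cluster with the highest *Nrarp*, of which WT1 held 1048 of 1365 cells. In secretory cells the genotypes did not overlap either, but only barely, with WT3 at 17.01 CPM and MT1306 at 16.99 CPM. The log2 difference there was −0.16 (SE 0.08, adjusted p = 0.999743 by limma voom). In multiciliated cells the genotypes overlapped, at −0.66 (SE 0.33, adjusted p = 0.895555 by limma voom).

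Across the 10 genes, 1 of 10 was lower without overlap in basal cells (1.89% of all genes), 1 of 10 in secretory cells (2.57%) and 0 of 10 in multiciliated cells (3.19%), with *Nrarp* as that gene each time. None was higher without overlap, where 6.08%, 2.92% and 6.84% of all genes were. Within single clusters, the *MIS/MIS* mean of *Nrarp* was below the *WT/WT* mean in 12 of the 13 clusters that had at least 2 mice of each genotype, clusters that come from the same 6 mice. It was likewise lower in 12 of 14 clusters for *Notch2*, 11 of 14 for *Notch1* and 11 of 13 for *Notch3*, and higher in 11 of 14 for each of *Hes1*, *Hes6* and *Jag2*. The share of all genes as one-sided over clusters was not computed, so these counts have no background and are a description only. In Basal1, *Nrarp* was at 32.8, 17.7 and 25.7 CPM in the *WT/WT* mice and at 17.7, 12.99 and 15.8 CPM in the *MIS/MIS* mice. Secretory2 was the exception for *Nrarp*, at 18.8 against 19.1 CPM on average.

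*Notch1* was the other gene at an unadjusted p under 0.05 in basal cells, at −0.33 (SE 0.13, unadjusted p = 0.0419 and adjusted p = 0.999934 by limma voom). The genotypes overlapped, since MT1301 was at 44.4 CPM. Without Basal4 the difference was −0.12. The estimates of the 10 genes lay between −0.89 and 0.32 in basal, between −0.22 and 0.23 in secretory and between −0.66 and 0.62 in multiciliated cells. The 95% intervals bound how far a difference could be seen. For *Hes6* in secretory cells the interval ran from −0.09 to 0.26, while for *Jag2* in the same cells it ran from −0.92 to 1.12 and for *Dll1* in multiciliated cells from −0.89 to 2.14.

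**Figure D5:**
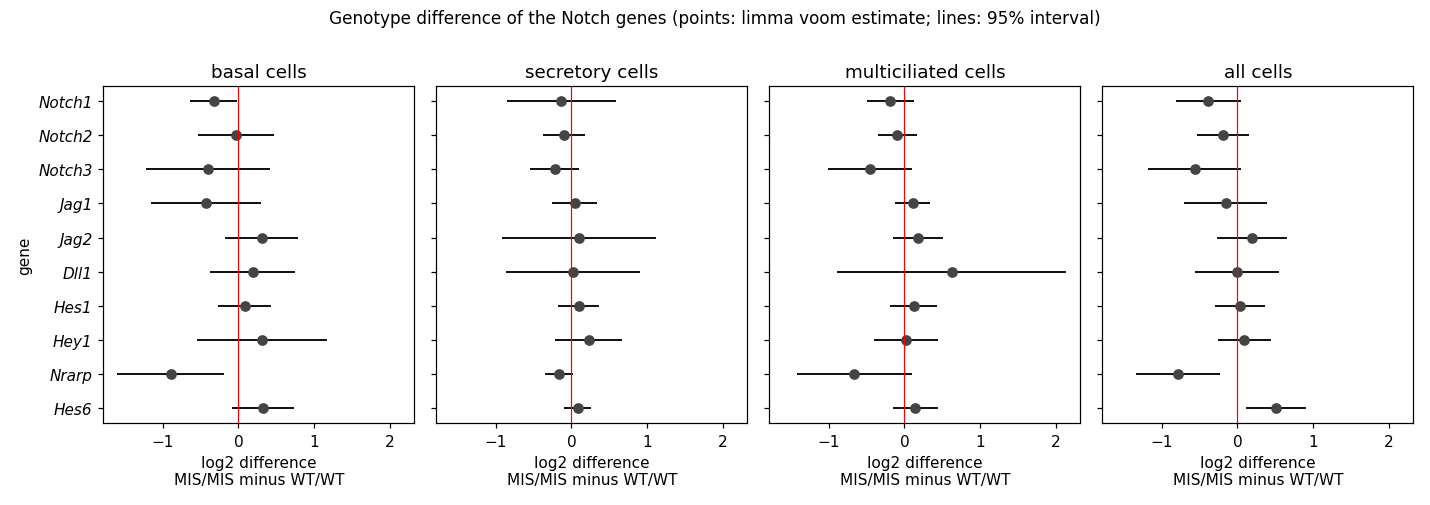
Log2 difference of MIS/MIS minus WT/WT mice (x axis) for each gene (y axis) in basal, secretory, multiciliated and all cells, as limma voom estimates (points) with 95% intervals (lines). The Nrarp interval in basal cells runs from −1.60 to −0.19 and leaves 0 outside, but no gene passed the adjusted threshold.

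Over all cells of a culture, a sum in which fewer cells of a type and less RNA per cell cannot be told apart, 2 of the 10 genes had an unadjusted p under 0.05 and none passed the adjusted threshold, as for 0% of 16461 genes (937 at an unadjusted p under 0.05). *Nrarp* was at 22.7, 14.96 and 15.8 CPM in the *WT/WT* mice and at 12.8, 10.9 and 8.89 CPM in the *MIS/MIS* mice (log2 difference −0.78, SE 0.23, adjusted p = 0.819365 by limma voom). *Hes6* was at 89.4, 114 and 139 CPM in the *WT/WT* mice and at 143, 168 and 200.3 CPM in the *MIS/MIS* mice (0.51, SE 0.16, adjusted p = 0.819365). Both were without overlap between genotypes, 1 of 10 lower (1.80% of all genes) and 1 of 10 higher (9.93%).

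The share of multiciliated cells, where *Hes6* is highest, was 11.7%, 12.0% and 16.2% in the *WT/WT* and 16.2%, 24.4% and 32.1% in the *MIS/MIS* cultures, and its part in the *Hes6* difference was not tested. Within the classes the *Hes6* difference was 0.32 in basal, 0.09 in secretory and 0.15 in multiciliated cells (adjusted p = 0.999934, 0.999743 and 0.895555 by limma voom), with overlap of the genotypes in each. Without WT1 these were 0.17, 0.09 and 0.02.

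Whether the genotype difference itself differed between classes was tested on the 18 sums of 3 classes and 6 mice with mouse as a term in the model. No gene passed the adjusted threshold between secretory and basal, multiciliated and basal or multiciliated and secretory cells (0%, 0% and 0% of 15942 genes, with 560, 703 and 449 at an unadjusted p under 0.05). Of the 10 genes, 1, 0 and 0 had an unadjusted p under 0.05. That gene was *Nrarp*, whose difference was 0.67 higher in secretory than in basal cells on the log2 scale (SE 0.26, unadjusted p = 0.025 and adjusted p = 0.999992 by limma voom). Without WT1 it was 0.43.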

How the data were processed

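Per the labels and the study's methods, the libraries were made with the 10x Genomics 3′ chemistry. The submitters' processing notes name Cell Ranger 7.1.0 and mm10, whereas the study's methods give an earlier version of Cell Ranger. The authors filtered cells (2500 to 7500 genes, at most 25% mitochondrial UMIs), clustered them in Seurat and named the clusters by hand. One deposited table holds whole-number UMI counts per gene and cell, and the other the authors' cluster name, UMI total, gene number and mitochondrial percent of each cell. Of the 23871 cells, 655 had over 7500 genes. Doublets were not called here.

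UMIs were summed per mouse and class or cluster. Sums were tested with limma 3.58.1 (voom; R 4.3.3), with trimmed-mean scaling and genes kept at 10 UMIs, scaled to library size, in at least 3 mice and 15 UMIs in all. The planned edgeR and DESeq2 tests were not run, because the deposited files' field separator kept the table from being recorded as counts. The fits were tested on simulated data. A total count of 100961835 to 153326568 UMIs per mouse sets the precision. Every *MIS/MIS* library is known only by its animal number. The genes, the wider list and the comparisons were chosen with earlier results of these data known. The wider genes named are the 3 with the largest log2 ratio per class.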

Additional observations from a re-analysis of the deposited data

How the results depend on the processing

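No paired analysis was possible because cells of the *MIS/MIS* group carry an animal number and no replicate number, so the genotypes share none. The edgeR and DESeq2 fits planned as the main test and an alternative were not run. Median-of-ratios and upper-quartile scaling, no low-count filter, limma-trend, thinned cells, the stated cell filters, single clusters and leaving out each mouse were run. Chosen after seeing the data were limma-trend, Secretory2 alone, leaving out Multiciliated1, and leaving out Basal4 for the class levels and for all cells.

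The number of gene and class comparisons without overlap, 18, stayed within 1.5 times under every alternative. The median share of cells with a UMI over genes and classes fell from 40.7% to 8.62% with thinned cells. None of the 10 genes passed the adjusted threshold under any alternative. Of 300 alternative ratios between classes, 289 moved by less than 1 SD between mice and 11 by more. Of 429 alternative estimates of the genotype differences within classes, 43 had another sign than the main one, in 17 of 30 gene and class pairs, and none of those was *Nrarp*, *Hes6* or basal *Notch1*. Counts over all genes moved as follows. In secretory cells, 1 gene became 0 with upper-quartile scaling and 0 to 0 when any mouse was left out. In multiciliated cells, 1 became 2 with thinned cells, 3 in Multiciliated3 alone and 2 with equal cluster composition. Over all cells, 0 became 1 without Basal4 and 0 to 268 when a mouse was left out, the latter without MT1301. The difference between secretory and basal cells went from 0 to 0 to 3 genes, the latter without WT2. The cause was not tested. *Dll1* in multiciliated cells rests on 85 UMIs in all.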
